A study of Mus musculus with 4 samples.

Results

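Proenkephalin, encoded by Penk, and the enzymes that turn peptide precursors into active peptides were examined in the mouse mammary tumour line Py2T, whose cells lose epithelial features when exposed to TGFβ. The 10 genes are the prohormone Penk, the convertases Furin, Pcsk1, Pcsk2, Pcsk5 and Pcsk6, the carboxypeptidases Cpe, Cpd and Cpm, and the amidating enzyme Pam. Each was represented by its brightest probe set with a single gene symbol, and 9 of the 10 were measured among 19938 genes. The array's gene table used here names no probe set for Pcsk2, which is not analysed here. Each of the 9 had 1 probe set, so the choice of the brightest one decided nothing. The genes were selected on the TGFβ against untreated differences of these same arrays, among which Penk and Cpm stood near the top, so their differences and calls are a description and not a test.

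Total RNA was hybridised to 4 Affymetrix arrays. The 2 untreated arrays came from Py2T cultures without added TGFβ, and the 2 TGFβ arrays from cultures given 2 ng/ml TGFβ for 5 days. All cultures belonged to the same line and grew in DMEM with glutamine, antibiotics and 10% serum. The labels call the replicates biological without saying how the cultures were separated, so SDs measure the spread between these samples. SEs and intervals come from the limma fit described below, which draws each gene's variance toward that of all genes tested. They are therefore not the spread of a gene's own arrays. They are narrower than those arrays alone would give for Penk, and wider for Pcsk1. Values are log2 expression values from RMA, on which 1 unit is a 2-fold difference, and the array medians lay between 6.742 and 6.756. A mean under 7 is called dim below, because background takes part of such a signal and compresses differences, and no detection calls come with the values.

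Prohormones enter the secretory pathway as inactive precursors. Subtilisin-like proprotein convertases cut them after pairs of basic residues, a carboxypeptidase trims the basic residues left at the new carboxyl end, and some products are then amidated. Penk carries several copies of the opioid pentapeptide Met-enkephalin and one of Leu-enkephalin, and is best known from neurons and adrenal chromaffin cells. Furin and its relatives also activate growth factors, integrin subunits and proteases in cells that store no peptides, among them the precursor of TGFβ itself.

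After TGFβ, Cpm, Penk and Furin were higher, Pcsk6 and Pam were lower, and the other 4 genes showed groups that overlapped. In the linear model fitted with limma to all genes, 3 of the 9 were called higher and 2 lower at an adjusted p under 0.05. Over all genes 13.6% were called, 6.49% higher and 7.15% lower. The arrays of the groups did not overlap for 5 of the 9 genes, against 52.6% of all genes. The median difference of the 9 was 0.15 on the log2 scale, and that of all genes was 0.01. Since the genes were listed with this contrast known, nothing is read from the distance between these counts.

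**Figure D1:**
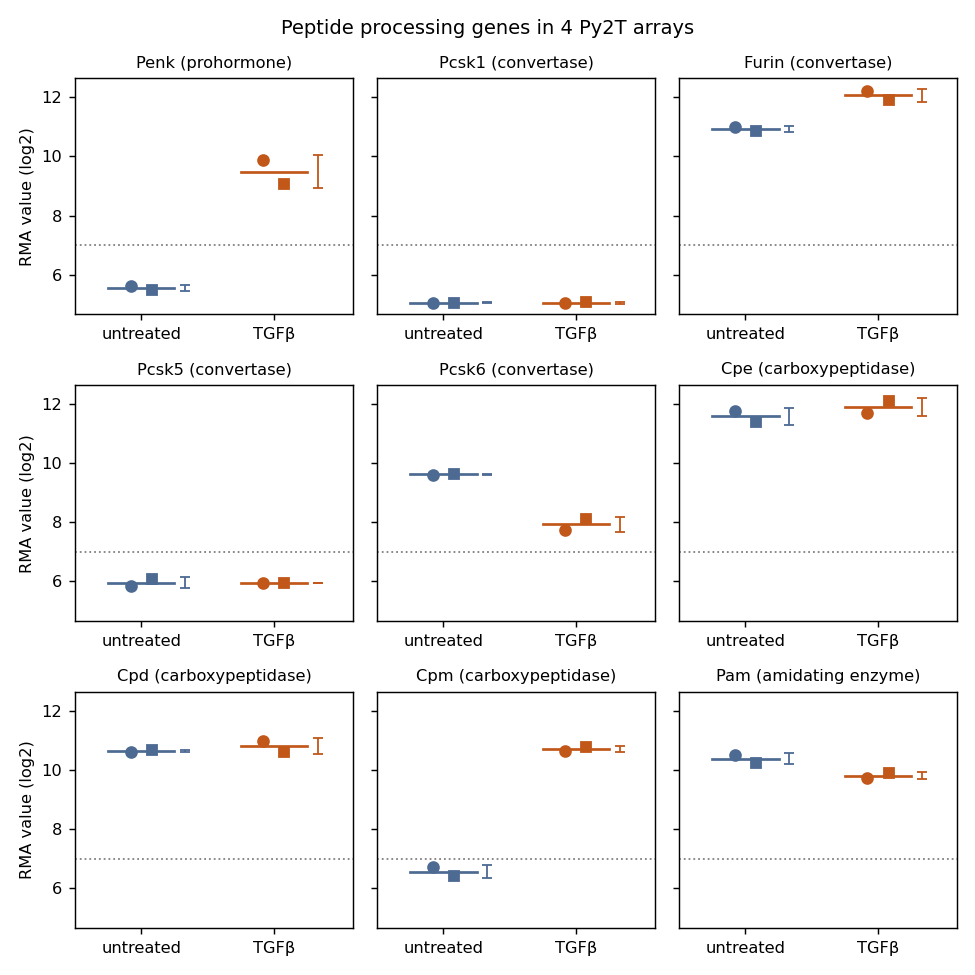
Each panel plots the RMA value (log2) of 1 gene, with untreated arrays in blue and TGFβ arrays in orange, replicate 1 as a circle and replicate 2 as a square. Horizontal bars are group means, the bars with caps beside them are means ± SD (n = 2), and the dotted line marks the value of 7, under which both groups of Pcsk1 and Pcsk5 and the untreated arrays of Penk and Cpm lie.

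Penk gave log2 values of 5.63 and 5.48 in untreated replicates 1 and 2 and of 9.88 and 9.08 in TGFβ replicates 1 and 2. The untreated arrays were both dim and 0.14 apart, and both TGFβ arrays lay at least 3.46 units above them. The means were 5.55 ± 0.10 and 9.48 ± 0.56 (SD, n = 2), a difference of 3.93 ± 0.25 (SE) on the log2 scale with a 95% interval of 3.31 to 4.54. This is a measured 15.2-fold difference, rank 6 among the rises of all 19938 genes. Because the untreated level was dim, background limits the size of the fold. The TGFβ arrays stood 1.74-fold apart, the widest gap between replicates of the 9 genes. The fold was 11.5 without TGFβ replicate 1 and 20.0 without TGFβ replicate 2.

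The convertases make the first cut. Furin, the broadly expressed convertase of the Golgi, gave 11.01 and 10.85 without TGFβ against 12.22 and 11.92 with it. Its groups did not overlap, and it rose 2.20-fold, a difference of 1.14 ± 0.12 (SE) with a 95% interval of 0.83 to 1.44 on the log2 scale. Pcsk6, also known as PACE4, a secreted convertase that binds the extracellular matrix, gave 9.61 and 9.64 without TGFβ against 7.75 and 8.12 with it. Both TGFβ arrays were below both untreated arrays by at least 1.49 units. It fell by 1.69 ± 0.13 (SE) on the log2 scale, which is 3.22-fold lower, with a 95% interval of -2.01 to -1.37. Furin and Pcsk6, related enzymes with similar cleavage motifs, thus went in opposite directions. With 1 array left out, the differences spanned 0.99 to 1.29 for Furin and -1.87 to -1.50 for Pcsk6.

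Pcsk1 and Pcsk2 encode the convertases of the regulated secretory pathway, which process neuropeptides in neuroendocrine cells and act on proenkephalin. Pcsk1 was dim on every array, at 5.05 and 5.03 untreated and 5.02 and 5.06 after TGFβ. Its arrays overlapped, and the difference of 0.00 had a 95% interval of -0.17 to 0.18. Pcsk5, a convertase known for activating Gdf11 in the mouse embryo, was dim too, at 5.83 and 6.08 untreated and 5.94 and 5.95 after TGFβ, again with overlap. Its difference was -0.01, with a 95% interval of -0.26 to 0.25. A change in either would be hard to detect at such levels.

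Promoter windows are shown for Furin and Pcsk6, the convertase genes that were called. The RefSeq table of build GRCm38.p6 gives windows from 250 bases before to 50 after a start site for 8 of the 10 genes. Penk and Cpe have no window, so their promoters were not searched. Furin and Pam have 2 start sites each, and the windows of Pam overlap over most of their length. Capitals mark GGGCGG, the GC box that Sp factors bind, and GGCGCC, a GC-rich motif bound by Smad proteins, on either strand, and no matches overlap in the windows printed. The first and second Furin windows are chr7:80405387-80405686 and chr7:80402763-80403062 on the minus strand, and the Pcsk6 window is chr7:65861886-65862185 on the plus strand.
Furin, first window: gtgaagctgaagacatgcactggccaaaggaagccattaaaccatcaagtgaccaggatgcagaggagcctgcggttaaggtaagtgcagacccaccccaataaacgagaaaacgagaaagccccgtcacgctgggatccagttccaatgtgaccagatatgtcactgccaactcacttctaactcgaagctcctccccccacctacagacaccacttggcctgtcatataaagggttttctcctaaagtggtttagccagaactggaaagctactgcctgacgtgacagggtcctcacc
Furin, second window: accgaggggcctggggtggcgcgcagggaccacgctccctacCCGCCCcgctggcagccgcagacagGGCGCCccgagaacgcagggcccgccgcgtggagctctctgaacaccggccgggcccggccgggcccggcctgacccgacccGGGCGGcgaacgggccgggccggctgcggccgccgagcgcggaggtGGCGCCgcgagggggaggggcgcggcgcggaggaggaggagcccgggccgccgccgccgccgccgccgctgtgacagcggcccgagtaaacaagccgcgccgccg
Pcsk6: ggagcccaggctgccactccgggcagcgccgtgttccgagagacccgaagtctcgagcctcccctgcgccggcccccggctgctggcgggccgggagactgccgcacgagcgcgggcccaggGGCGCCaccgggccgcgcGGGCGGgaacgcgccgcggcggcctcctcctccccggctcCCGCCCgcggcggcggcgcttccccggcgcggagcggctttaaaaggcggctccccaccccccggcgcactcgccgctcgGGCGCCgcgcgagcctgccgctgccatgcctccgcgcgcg
The first Furin window has 51.3% G and C and holds 0 matches of either motif. The second has 82.3% G and C with 2 matches of GGGCGG and 2 of GGCGCC, and the Pcsk6 window, at 81.7%, has 2 and 2 as well. GGGCGG occurs in 35.7% and GGCGCC in 11.9% of the 32851 windows of the table, whose median G and C content is 52.7%. A match describes the letters of a window and is not a shown binding site.

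The carboxypeptidases remove the basic residues that the convertases leave. Cpm, a carboxypeptidase anchored to the outer cell membrane by a lipid, which trims carboxyl-terminal arginine and lysine from peptides such as kinins, gave 6.73 and 6.40 untreated and 10.65 and 10.78 after TGFβ. The untreated arrays were dim and both TGFβ arrays lay at least 3.93 units above them. The means were 6.56 ± 0.23 and 10.72 ± 0.09 (SD, n = 2), and the difference of 4.15 ± 0.13 (SE) had a 95% interval of 3.84 to 4.47 on the log2 scale. Cpm had rank 3 among the rises of all genes, at 17.8-fold, and 15.9-fold to 20.0-fold with 1 array left out. Its TGFβ arrays stood 1.09-fold apart, closer together than those of Penk.

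Cpe, the carboxypeptidase of secretory granules that completes enkephalin, gave 11.78 and 11.39 in untreated cells and 11.70 and 12.12 after TGFβ. It was far above the dim range on every array, and TGFβ replicate 1 lay between the untreated arrays. The difference was 0.32 ± 0.18 (SE), with a 95% interval of -0.13 to 0.78, and was not called. Cpd, a membrane carboxypeptidase that cycles through the trans-Golgi network and meets the products of furin there, gave 10.63 and 10.68 untreated and 10.99 and 10.62 after TGFβ. TGFβ replicate 2 was just below both untreated arrays while replicate 1 was above them. Its difference of 0.15 ± 0.13 (SE) had a 95% interval of -0.17 to 0.48 and was -0.03 without TGFβ replicate 1. Both intervals include 0 and end below that of Cpm.

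The promoter window of Cpm, the gene with the largest rise of the 9, is chr10:117629250-117629549 on the plus strand of GRCm38.p6, and its capitals mark GGGCGG on either strand.
Cpm: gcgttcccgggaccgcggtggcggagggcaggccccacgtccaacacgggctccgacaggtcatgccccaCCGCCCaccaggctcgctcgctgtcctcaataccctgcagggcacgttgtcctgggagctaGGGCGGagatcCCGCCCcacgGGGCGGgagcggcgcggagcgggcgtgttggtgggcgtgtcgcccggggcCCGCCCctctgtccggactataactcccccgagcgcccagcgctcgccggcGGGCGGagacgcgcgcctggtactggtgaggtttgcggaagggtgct
It has 73.7% G and C and 6 matches of GGGCGG, the motif found in 35.7% of all windows. The 8 genes with a window include Pcsk2 but not Penk or Cpe, whose promoters were not searched. Across the 10 windows of the 8 genes, 0 held TGANTCA, the AP-1 motif found in 7.81% of all windows. GGAATG, the core motif of Tead factors found in 14.7%, was in 0 of them as well. The palindromic Smad motif GTCTAGAC, present in 0.213% of all windows, was found in 0 of them too. The cAMP response element TGACGTCA, which 1.79% of all windows hold, was found once, in the window of Pcsk1. No match says only that these letters are not in a window.

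Pam encodes the enzyme that amidates the carboxyl end of many peptide hormones, a step that enkephalins themselves do not need. It gave 10.52 and 10.25 in untreated cells and 9.72 and 9.89 after TGFβ. The groups did not overlap, with 0.36 units between the nearest arrays. It fell by 0.58 ± 0.12 (SE) on the log2 scale, which is 1.49-fold lower, with a 95% interval of -0.87 to -0.29. The call was lost without untreated replicate 1, at -0.44, and without TGFβ replicate 1, at -0.49. Of the 5 genes called it was the only one whose call depended on a single array.

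**Figure D2:**
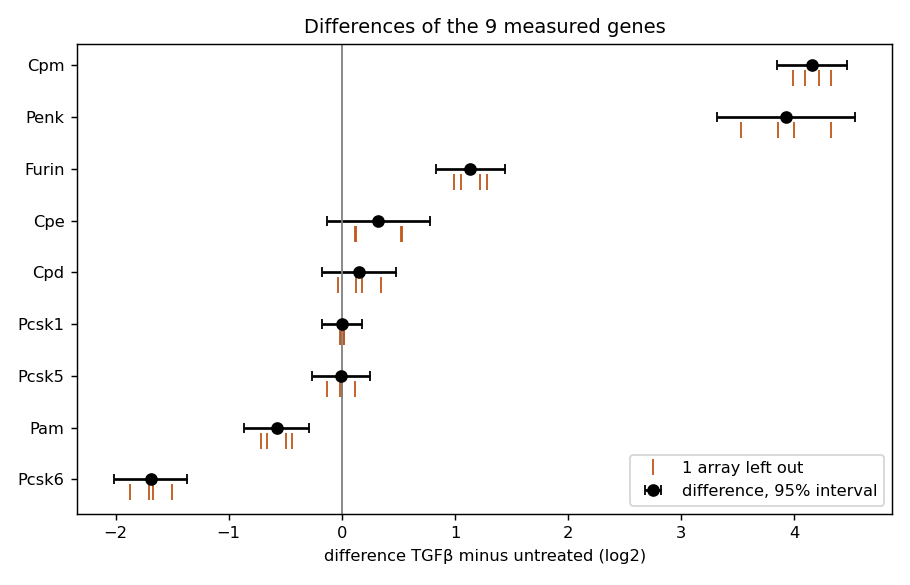
The x axis is the difference TGFβ minus untreated (log2), with a row for each of the 9 measured genes. Black points are the fitted differences with 95% intervals, and orange ticks are the differences with each of the 4 arrays left out in turn. The ticks of Cpm lie between 3.99 and 4.32 and those of Penk between 3.53 and 4.32, while those of Cpd fall on both sides of 0.

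Other genes of peptide production and response were taken from 8 lists with 127 distinct genes, of which 114 were measured. Of these 12 were called higher and 17 lower, and their median difference was 0.02 against 0.01 for all genes. The share called was 25.4%, against 13.6% of all genes, and by list it ran from 0% to 46.7%. The lists were chosen with earlier results of these data known, so nothing is read from these shares. Counts below are from the same fit.

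Among 20 measured precursors of other opioid and neuropeptides, 0 rose and 2 fell, with a median of 0.03, and 17 had both means dim. In this list 3 genes had an unadjusted p under 0.05 in limma, as did 5200 of all 19938 genes. Pdyn, the precursor of dynorphins, differed by 0.00 (95% interval -0.21 to 0.21) and Pomc, that of the endorphins and melanocortins, by 0.19 (95% interval -0.06 to 0.44). Both Pdyn and Pomc were dim in both groups, where a change would be hard to detect. Penk was selected on its rise in these same arrays, and the differences between it and the others were not themselves tested. Edn1, the precursor of the vasoconstrictor endothelin, fell by 1.16 ± 0.19 (SE, limma adjusted p = 0.013). It went from 7.64 to a dim 6.48, where background limits the size. Adm, the precursor of adrenomedullin, fell by 0.35 (adjusted p = 0.037), which no longer passed whichever array was left out, at values between -0.40 and -0.30, and its means were dim.

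The list of other convertases held 3 measured genes, of which 0 were called with limma and 1 had an unadjusted p under 0.05. Over all 19938 genes, 5200 had such a p. Pcsk7, a convertase of the trans-Golgi network, differed by 0.06 and the testis convertase Pcsk4 by 0.04. Mbtps1, the site-1 protease that activates sterol-sensing transcription factors, differed by 0.21 (adjusted p = 0.16). Against the 1.14 of Furin and the -1.69 of Pcsk6, the differences of these 3 convertases spanned 0.04 to 0.21.

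Of 17 measured relatives of the carboxypeptidases, 2 rose, 3 fell and 12 did not pass, with a median of 0.03. Both means were dim for 12 of the 17. Cpn1, the catalytic subunit of plasma carboxypeptidase N, which like Cpm removes basic residues, rose 3.41-fold from 7.32 to 9.09 (adjusted p = 0.016). Its call was lost without TGFβ replicate 1, at 1.49. Aebp1, a secreted carboxypeptidase-like protein that binds collagen, rose 2.34-fold from 9.20 to 10.43 (adjusted p = 8.7e-04). Cpa4, a secreted carboxypeptidase that removes hydrophobic residues, fell by 2.38 (adjusted p = 0.011). Agbl5 and Agtpbp1, cytosolic enzymes that shorten glutamate chains on tubulin, fell by 0.56 (adjusted p = 0.019) and by 0.51 (adjusted p = 0.026). The Agbl5 call was lost without untreated replicate 1 (-0.44), TGFβ replicate 1 (-0.54) or TGFβ replicate 2 (-0.58). The Agtpbp1 call was lost without untreated replicate 2 (-0.40), TGFβ replicate 1 (-0.54) or TGFβ replicate 2 (-0.48).

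Secretory granule proteins, chaperones and partners of amidation numbered 19 measured genes, of which 1 rose, 3 fell and 15 were not called. Their median was -0.03, and 13 had both means dim. Ptprn, also called IA-2, a membrane protein of dense-core granules, rose 5.42-fold from 7.14 to 9.58, a difference of 2.44 ± 0.15 (SE, adjusted p = 6.5e-04). Sorl1, a sorting receptor, fell by 1.63 (adjusted p = 0.0088), from 8.62 to a dim 6.99. Rab27a, a small GTPase of granule docking whose means were dim, fell by 0.68 (adjusted p = 0.0075). Cyb561, the membrane cytochrome that supplies electrons to the granule ascorbate used by the Pam enzyme, fell by 0.75 ± 0.08 (SE, adjusted p = 0.0038). The granule proteins Chga and Chgb were dim in both groups and differed by 0.10 and -0.04. Scg5, the 7B2 chaperone of the Pcsk2 enzyme, was dim too, with a difference of -0.08, and Pcsk1n, the precursor of an inhibitor of the Pcsk1 enzyme, differed by -0.03. Sort1, the sorting receptor sortilin, was dim in both groups and had a difference of -0.42 (adjusted p = 0.20). Its untreated arrays stood apart, at 7.09 and 6.56, and with untreated replicate 2 left out the difference was -0.69.

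Of 6 opioid receptor genes and their relatives, 1 rose, 0 fell and 5 did not pass. The delta, mu and kappa receptor genes Oprd1, Oprm1 and Oprk1 differed by 0.07, -0.01 and 0.02, the mu and kappa genes with both means dim and Oprd1 near that limit at 6.94 and 7.02. Ogfr, a nuclear-associated protein that binds Met-enkephalin and is unrelated in sequence to those receptors, rose 1.44-fold from 10.48 to 11.01 (adjusted p = 0.012). Its call was lost without untreated replicate 2, at 0.49.

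Peptidases that break down enkephalins and other small peptides numbered 13 measured genes, of which 1 rose, 2 fell and 10 were not called, with a median of 0.02. Mme, neprilysin, the membrane peptidase best known for cleaving enkephalins, fell by 1.83 ± 0.27 (SE, adjusted p = 0.010), from 7.19 to a dim 5.37, where background limits the size. Rnpep, an aminopeptidase for amino-terminal basic residues, fell by 1.13 (adjusted p = 0.0032). Ece2, a relative of the endothelin-converting enzyme, rose by 0.64 (adjusted p = 0.032). That call was lost without untreated replicate 1 (0.60), untreated replicate 2 (0.67) or TGFβ replicate 1 (0.45). With the mean of its probe sets in place of the brightest one, the rise of Ece2 was smaller, at 0.37, and still called. Anpep, aminopeptidase N, was dim in both groups and differed by 0.25 (adjusted p = 0.42). Its TGFβ arrays gave 5.76 and 6.23 against 5.76 and 5.73 untreated, so the difference rested on TGFβ replicate 2. Without TGFβ replicate 1 the difference was 0.48.

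Kinins are peptides that Cpm converts from ligands of the B2 receptor into ligands of the B1 receptor. Of 6 measured genes of the kinin system 0 were called with limma and 0 had an unadjusted p under 0.05, with a median of -0.0033. Both means were dim for 5 of the 6, so a change would be hard to detect. Over all 19938 genes, 5200 had such a p. The receptor genes Bdkrb1 and Bdkrb2 differed by 0.21 (adjusted p = 0.30) and 0.11 (adjusted p = 0.59), and Bdkrb1 was dim in both groups.

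Genes for proteins that furin-like convertases activate went both ways in RNA. Of 30 measured 7 rose, 7 fell and 16 were not called, with a median of 0.01. The integrin subunit Itga5 rose 4.36-fold, the lymphatic growth factor Vegfc 2.13-fold (adjusted p = 0.0023) and the growth factor Pdgfb 2.02-fold (adjusted p = 0.0035). The ligand Bmp4 fell by 2.46 (adjusted p = 0.0087), the receptor Notch1 by 1.35 (adjusted p = 0.0045) and the laminin-binding integrin subunit Itga6 by 0.97 (adjusted p = 0.0048). Several of these genes are known TGFβ responders and were picked with results of these arrays in view, so the list's counts are no independent evidence.

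**Figure D3:**
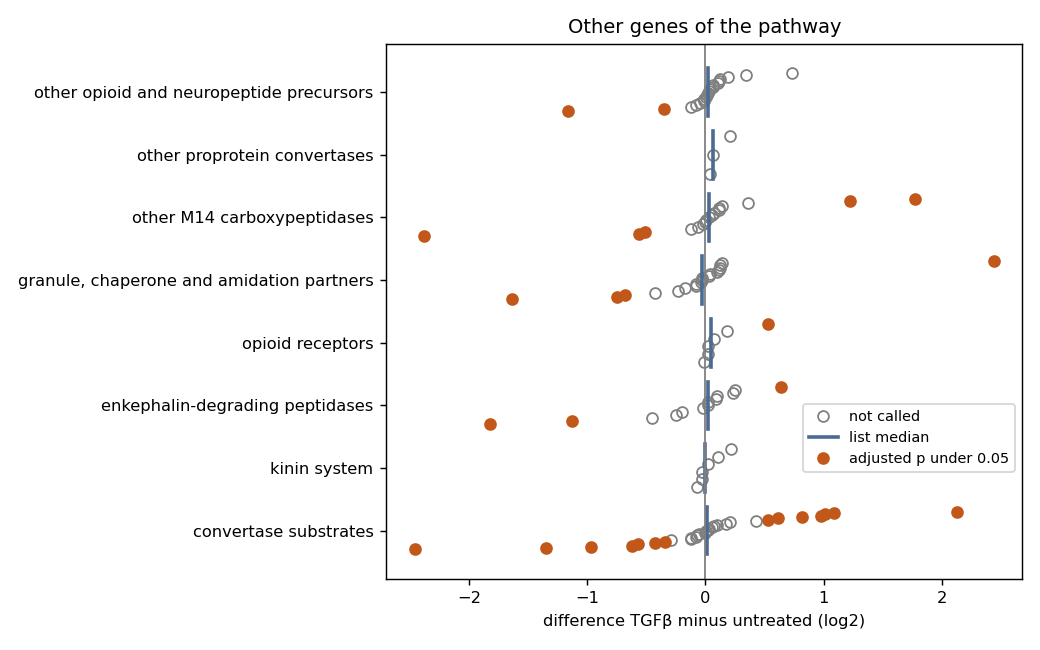
The x axis is the difference TGFβ minus untreated (log2) and each row is a list of other genes of the pathway, with 1 point per measured gene. Filled points passed an adjusted p of 0.05 in limma, open points did not, and blue bars are list medians, which lie between -0.03 and 0.06. The granule protein Ptprn, at 2.44, and the growth factor Bmp4, at -2.46, are the points farthest from 0.

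The genes whose 4 values, taken from their own untreated mean, lay nearest to those of Penk were Cdh10 at a Euclidean distance of 0.32, Hmgcll1 at 0.415, Dgkk at 0.507, Cpm at 0.741 and Lce1h at 0.787. For Cpm they were Cdh10 at 0.507, Hmgcll1 at 0.641, Rab15 at 0.679, Penk at 0.741 and Dgkk at 0.94. The candidates were genes whose brighter group had a mean of at least 7. Since Penk and Cpm were selected on their rises in these same 4 arrays, the closeness of one to the other was largely fixed by that choice and is only a description. The distance describes the sizes of the rises over these arrays and says nothing of shared control.

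The luminal epithelial genes Krt8, Krt18, Krt7, Cdh1 and Epcam had means above 10 in both groups, with a mean level of 12.72 to 12.73 in untreated and 12.10 to 12.33 in TGFβ arrays, and 2 of the 5, Cdh1 and Epcam, were called lower. The 6 measured neuroendocrine markers, Chga, Chgb, Scg2, Syp, Insm1 and Neurod1, were dim in both groups, with a mean level of 5.77 to 5.81 in untreated and 5.82 to 5.87 in TGFβ arrays. Penk, Cpm and Ptprn thus rose while these markers stayed in the dim range. Fibroblast markers had a mean level of 6.48 to 6.49 in untreated and 6.70 to 6.89 in TGFβ arrays, with 2 of 6 called higher, Pdgfrb by 1.01 and Col1a1 by 0.46, and Dcn, Lum and Thy1 dim in both groups. Macrophage and leukocyte markers had a mean level of 6.36 to 6.66 in untreated and 6.09 to 6.27 in TGFβ arrays, with Ptprc, Adgre1 and Lyz2 dim in both groups. Of the other two, Cd68 differed by -1.29 (adjusted p = 0.052) and Csf1r by -0.45 (adjusted p = 0.20), neither called although the groups did not overlap. Endothelial markers were all dim. The part of other cells in these differences was not tested, and in RNA from whole cultures fewer cells of a type and less RNA per cell cannot be told apart.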

How the data were processed

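RNA of 2 untreated and 2 TGFβ cultures was measured on arrays. The authors deposited log2 values for each probe set, made with RMA in the R package oligo, per the submitters' processing notes, with versions and annotation not given in the sources used here. Probe sets were named from the platform's gene table, and of 35556 those with 1 symbol (21789) were used, the brightest by mean over 4 arrays standing for a gene. Groups were compared by limma, version 3.58.1, under R 4.3.3 (linear model, empirical Bayes, two-sided, 2 residual and 3.77 prior degrees of freedom, Benjamini-Hochberg over all 19938 genes), with no filter or further normalization, and the code was tested on simulated data. With 2 arrays a group the smallest two-sided p of an exact permutation test is 0.333. The number of arrays limits the precision. A fit with 1 array left out holds 1 array in that group, whose spread is then unmeasured. Calls kept, gained or lost in such fits are only a description.

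The members, lists, markers and motifs were chosen with earlier results of these data known. The text names all members, 20 related genes whatever their values, up to 3 called genes per direction and list, the 5 nearest patterns to Penk and Cpm, and their neighbours. Motifs were searched on both strands of RefSeq promoter windows (GRCm38.p6). Alternatives were 3 other scalings, 2 filters on dim genes, the mean of a gene's probe sets, an intensity trend with robust variances, a replicate block, a 2-fold threshold, leaving out each array, and, chosen after seeing the data, a crossed block.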

Additional observations from a re-analysis of the deposited data

How the results depend on the processing

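The calls of Penk, Cpm, Furin and Pcsk6 held under all 14 alternatives, with differences of 3.53 to 4.32, 3.99 to 4.32, 0.99 to 1.29 and -1.87 to -1.50 on the log2 scale. Pam, at -0.71 to -0.44, lost its call under 4 of them, so that 1 member was lower with the replicate block or a 2-fold threshold. Not all of these alternatives could move a difference. Each measured member has 1 probe set, so the mean of probe sets left the differences unchanged. The dim filters, intensity trend, blocks and 2-fold threshold left them unchanged too and bore only on the calls. The genes were selected on these differences, so calls that held are a description. With 1 array left out, 4 to 5 members were called, 3 higher each time and 1 to 2 lower, beside 1535 to 2260 of all genes (740 to 1167 higher and 751 to 1093 lower) and 22 to 25 list genes (10 to 12 higher and 11 to 15 lower). With the replicate block 1624 genes were called, 785 higher and 839 lower, and 11 list genes were lower. Cpn1, Agbl5, Agtpbp1, Ece2 and Adm were then not called. With the 2-fold threshold 677 were called, 323 higher and 354 lower, and 13 list genes, 6 higher and 7 lower. The replicate numbers were not taken as pairs, since the labels do not say that same-numbered cultures belong together. The deviations of same-numbered arrays were weakly correlated (r = -0.213 across 19938 genes, which are not independent replicates), which does not decide the question. A crossed pairing, chosen after seeing the data, called 3640 genes and 6 members, with Cpe added. The dim filters left no value for Pcsk1 (both) and Pcsk5 (the dimmer 50%).

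Signs that turned belonged to genes that were not called, and mostly when 1 array was left out. The ranges were then -0.015 to 0.022 for Pcsk1, -0.14 to 0.12 for Pcsk5, -0.033 to 0.34 for Cpd, -0.14 to 0.060 for Chgb, -0.052 to 0.059 for Gm11780, -0.087 to 0.24 for Oprd1, -0.020 to 0.057 for Oprk1 and -0.059 to 0.029 for Oprm1. They were -0.11 to 0.044 for Pcsk1n, -0.079 to 0.15 for Pcsk4, -0.014 to 0.13 for Pcsk7, -0.073 to 0.075 for Pdyn and -0.17 to 0.0078 for Scg5. With cyclic loess Pcsk1 (-0.00041), Gm11780 (-0.0014) and Pdyn (-0.0057) turned, and with median centring Pdyn (-0.00020). The cause was not tested. Dim levels limit what can be said of Pcsk1, Pcsk5, the receptors and most neuropeptides.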

Other observations

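The measured genes next to Penk and Cpm in the RefSeq gene order of GRCm38.p6 did not share their rises. Beside Penk, the dehydrogenase gene Sdr16c6 differed by 0.02 (limma adjusted p = 0.92) and the predicted gene Gm11780 by 0.00 (adjusted p = 0.99), both dim in all 4 arrays. Beside Cpm, Cpsf6, a subunit of a pre-mRNA cleavage factor, differed by -0.26 (adjusted p = 0.15). Mdm2, the ubiquitin ligase that restrains p53, lies on the other side of Cpm and gave 12.64 and 12.56 in untreated and 12.88 and 12.96 in TGFβ arrays. Its groups did not overlap, and the difference of 0.32 ± 0.08 (SE) missed the threshold (adjusted p = 0.051), passing without the dimmer 50% of genes, with an intensity trend and robust variances, and with the crossed pairing. The differences between neighbours were not themselves tested.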
